A study of Rattus norvegicus with 74 samples.

Results

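Cyp1a1, Cyp1a2 and Cyp1b1 encode the cytochrome P450 enzymes of family CYP1, and their expression was followed here in rat liver across 4 agents and 15 dose groups. Each gene was represented by every probe set annotated to it alone, which gave 1 probe set per gene: 1370269_at for Cyp1a1 (Entrez gene 24296), 1387243_at for Cyp1a2 (24297) and 1368990_at for Cyp1b1 (25426). The genes are 3 of the 14217 genes measured, and their probe sets are 3 of the 31099 on the array. In the rat assembly GRCr8, Cyp1a1 and Cyp1a2 lie next to each other on chromosome 8 and Cyp1b1 lies on chromosome 6.

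The animals were Wistar Han rats, Crl:WI (Han), sampled at postnatal day 22 (PND 22). PBDE-47, a single congener of the polybrominated diphenyl ether flame retardants (also written BDE-47), and DE-71, a commercial mixture of such congeners, were each gavaged daily at 0, 0.1, 15 and 50 mg/kg, first to the dams (gestation days 6 to 21) and later to their pups (PND 12 to 21). Phenobarbital, a barbiturate that activates the nuclear receptor CAR, was given at 0, 5 and 45 mg/kg. PCB126, a dioxin-like polychlorinated biphenyl, carries labels of 0, 10, 50 and 250 mg/kg, and no source used here allows this unit to be checked. The dosing text speaks of PBDE-47 and DE-71, and no separate schedule is given for the remaining agents. Sex and litter are not given. No genotype or other treatment is named, so the groups of an agent differ in the labels by dose alone. Each group held 5 arrays except DE-71 50 mg/kg, which held 4, for 74 arrays in all.

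The aryl hydrocarbon receptor (AhR) is a ligand-activated transcription factor that is held in the cytoplasm in a complex with the chaperone HSP90. Once it binds a planar aromatic ligand such as a dioxin, it enters the nucleus, pairs with ARNT and binds DNA elements that carry the core GCGTG. Cyp1a1, Cyp1a2 and Cyp1b1 are its best known target genes and serve as markers of its activation. CYP1A2 is a constitutive enzyme of the hepatocyte around the central vein, CYP1A1 is barely expressed in liver without a ligand, and CYP1B1 is known mainly from tissues other than liver and from mesenchymal cells.

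Expression is given as log2 of the probe set signal, so that a difference of 1 is a doubling. Levels of different probe sets were not compared with each other, since probe sets differ in brightness, and cross-hybridisation between the related genes was not checked. Array medians lay between 4.819 and 5.042 and the highest value of the table was 14.94. A total of 4 pairs of arrays were nearly identical, with a root mean square difference of 0.1048 to 0.2023 over 300 variable genes against at least 0.5313 for the other pairs of the 656 within an agent. Replicates 3 and 4 of PBDE-47 0 mg/kg and replicates 1 and 2 of DE-71 15 mg/kg were of the same group and were each averaged to 1 sample, which left 72 samples. The other 2 pairs each joined a 15 and a 50 mg/kg array and were kept. They were replicate 3 of each dose for PBDE-47 and replicates 5 and 4 for DE-71. Some results at these doses are therefore also given without them. The labelled tissue carried its markers: 7 of 8 hepatocyte markers were measured, and their mean lay between 13.61 and 14.09 in every sample. Lists of gut and pancreas (7 genes) and lung markers (3 genes) averaged 4.80 to 5.45 and 3.43 to 4.12, and none of their genes was called in any comparison of a dose with its control. In whole liver, fewer cells of a type and less RNA per cell cannot be told apart.

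The promoter windows of the members that could be read were searched for the AhR core. The windows below are the 250 bases before the transcription start in RefSeq, assembly GRCr8, written 5′ to 3′ on the strand of the gene, with each GCGTG, or CACGC where the core lies on the opposite strand, in capitals. Cyp1a2 lies at chr8:66978150-66978399 on the minus strand and Cyp1b1 at chr6:21094315-21094564 on the plus strand. Entries were matched by symbol for 2 of the 3 members, Cyp1a2 and Cyp1b1.
Cyp1a2: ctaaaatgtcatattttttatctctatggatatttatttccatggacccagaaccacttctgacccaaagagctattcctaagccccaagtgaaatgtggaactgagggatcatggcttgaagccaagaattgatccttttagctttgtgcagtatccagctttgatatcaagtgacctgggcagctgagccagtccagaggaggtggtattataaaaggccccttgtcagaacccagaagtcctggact
Cyp1b1: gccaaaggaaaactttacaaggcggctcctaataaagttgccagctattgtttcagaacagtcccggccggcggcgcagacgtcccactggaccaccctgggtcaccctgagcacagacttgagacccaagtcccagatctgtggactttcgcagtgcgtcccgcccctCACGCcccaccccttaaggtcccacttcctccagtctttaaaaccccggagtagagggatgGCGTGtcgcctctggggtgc
The Cyp1b1 window held 2 copies of the core, 20 to 16 bases before the start on the given strand and 81 to 77 bases before it on the opposite strand. The Cyp1a2 window held 0 copies, and 0 CG dinucleotides against 13 in Cyp1b1. Among 33469 such windows, 25.9% held at least 1 core on either strand and 8.12% at least 2. The longer form TNGCGTG, which contains the core, occurred once in the Cyp1b1 window and in 4.09% of all windows. These matches are letters in a window of this length and say nothing of binding in these livers.

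In the control livers the 3 probe sets differed in how far their values ranged. Cyp1a1 ranged from 4.41 to 10.84 over the control samples, and the control means were 8.71 ± 0.65 (SD, n = 5) for phenobarbital, 9.17 ± 0.98 (n = 5) for PCB126, 9.50 ± 0.96 (n = 4) for PBDE-47 and 6.91 ± 1.47 (n = 5) for DE-71. The DE-71 controls were at 6.80, 4.41, 8.05, 7.69 and 7.59, lower than most controls of the other agents, with an overlap at the phenobarbital and PCB126 samples of 7.64 and 7.48. Cyp1a2 stayed between 12.17 and 13.33, with control means of 12.60 ± 0.43 for DE-71, 13.03 ± 0.20 for PBDE-47 and 13.12 for both phenobarbital (SD 0.28) and PCB126 (SD 0.22). Cyp1b1 was the narrowest, between 4.79 and 5.41, with control means from 4.95 to 5.30 and SDs from 0.10 to 0.17. The deposited values carry no detection call, and the Cyp1b1 controls lie close to the array medians of 4.819 to 5.042, so that Cyp1b1 is not shown to be above background there. If it was not, its narrow range and its lack of correlation say nothing about the gene, a fall could not be seen, and its folds against controls are lower bounds. The control means of Cyp1a1 spanned 2.59, those of Cyp1a2 0.52 and those of Cyp1b1 0.35.

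An F test over the 4 control means in limma called Cyp1a1 (F = 7.92, adjusted p = 0.0014) and Cyp1a2 (F = 4.84, adjusted p = 0.017), and did not call Cyp1b1 (F = 0.26, adjusted p = 0.88). The same test called 36.6% of all genes, so a difference between control groups was common on these arrays. The distributions of values were tighter within each agent than over all agents, and agent and array processing cannot be told apart. After quantile normalization of all arrays together the F values were 7.56 for Cyp1a1 and 4.64 for Cyp1a2 (adjusted p = 0.0024 and 0.026). The DE-71 controls carried much of the difference: without replicate 2 of that group, F was 4.38 for Cyp1a1 (adjusted p = 0.026) and 2.67 for Cyp1a2 (adjusted p = 0.11), and without replicate 1 it was 2.85 for Cyp1a2 (adjusted p = 0.099). Without replicate 5 of the same group, F for Cyp1a2 was 7.54 (adjusted p = 0.002).

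Controls that were high in Cyp1a1 were also high in Cyp1a2. Over 19 control samples, taken as deviations from the mean of their own group, Pearson's r was 0.72 (permutation p = 0.0015, adjusted over 3 gene pairs 0.0045) and Spearman's rho was 0.75 (permutation p = 0.0016, adjusted 0.0047). Without the 2 samples farthest from the median of Cyp1a1, r was 0.63. Within the agents, r was 0.91 for phenobarbital, 0.71 for PCB126, 0.89 for PBDE-47 and 0.65 for DE-71, each over 4 or 5 samples and too few for a test of their own. The replicate 3 control of phenobarbital, for example, was the lowest of its group in both genes, at 7.64 for Cyp1a1 and 12.63 for Cyp1a2. No such relation was detected for Cyp1b1, with r = 0.08 against Cyp1a1 (rho 0.09) and r = -0.14 against Cyp1a2 (rho -0.09), each with an adjusted permutation p of 0.76. Without the 2 farthest samples these were 0.27 and -0.07.

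**Figure D1:**
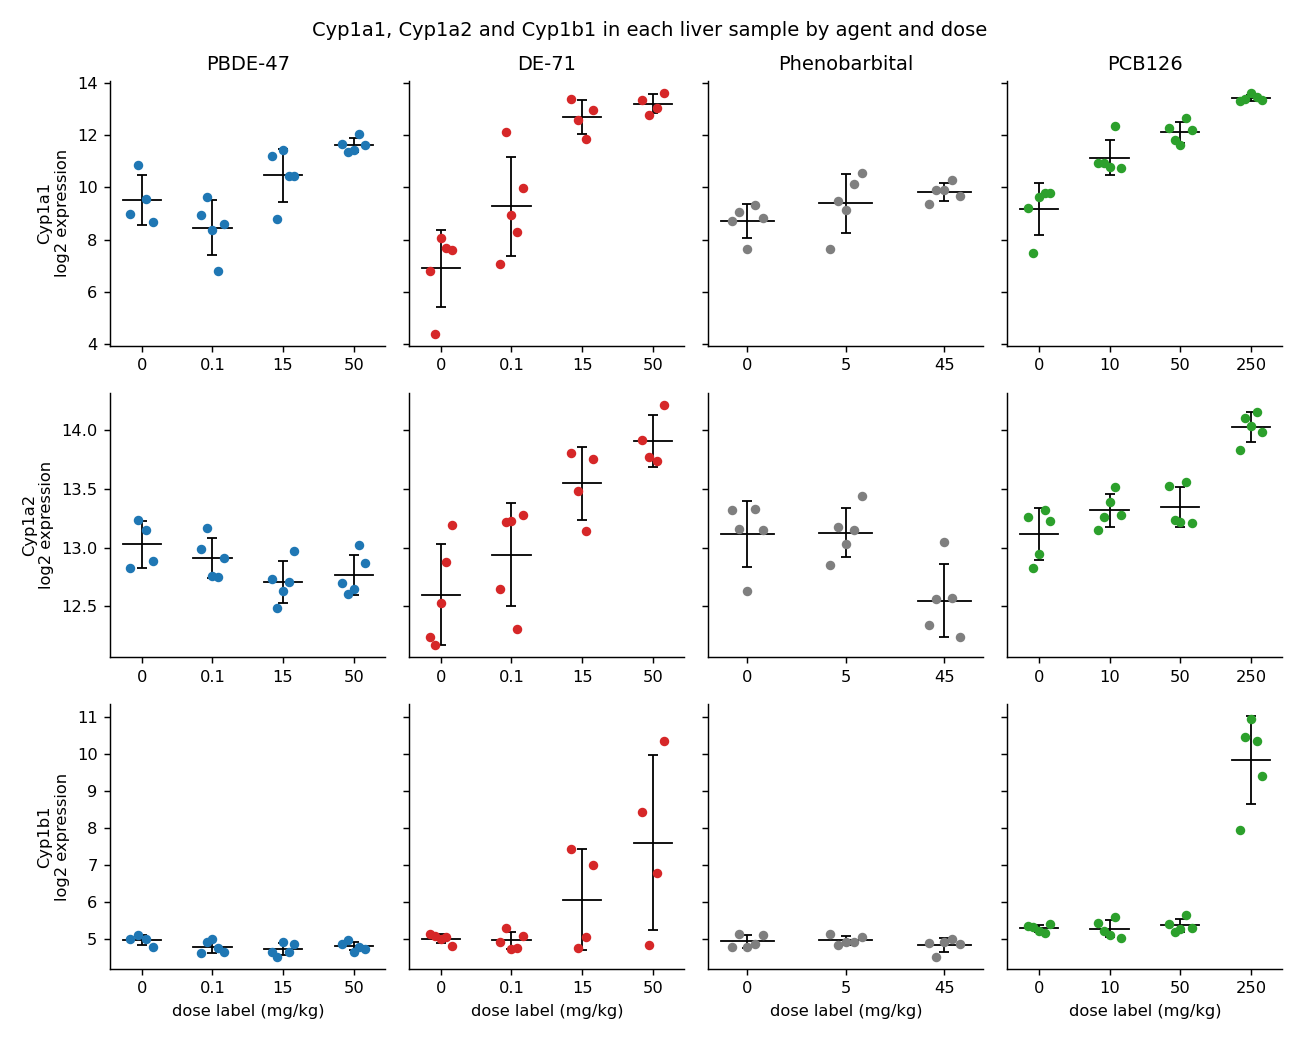
Log2 expression of Cyp1a1 (top), Cyp1a2 (middle) and Cyp1b1 (bottom) in each of the 72 liver samples, by agent (columns) and labelled dose in mg/kg (horizontal axes, evenly spaced); each point is a sample, the long bar the group mean and the whiskers ± 1 SD, and each gene has its own vertical scale. Cyp1a1 climbs under DE-71, PCB126 and PBDE-47 and tightens at the top doses, Cyp1a2 moves within 12.17 to 14.22, and Cyp1b1 reaches 6.78 or more in 10 samples, all at DE-71 15 or 50 or PCB126 250 mg/kg.

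Under PCB126 Cyp1a1 passed the test at a lower dose than Cyp1a2 and Cyp1b1. Cyp1a1 was at 9.19, 7.48, 9.64, 9.77 and 9.78 in the controls and at 10.91, 10.94, 10.76, 12.33 and 10.72 at 10 mg/kg. The lowest sample at 10 mg/kg stood above the highest control, which was true of 0.0985% of all genes in that comparison. The difference of 1.96 (95% confidence interval 0.83 to 3.10) gave an unadjusted p of 0.001 in limma and an adjusted p of 1, and 0 of 14217 genes (0%) were called at this dose, against 379 at an unadjusted p below 0.05. By the exact permutation test on this gene alone, p was 0.0079, the smallest that 5 against 5 samples can give. The difference was 1.66 without replicate 4 of the 10 mg/kg group, the sample at 12.33, and 1.54 without control replicate 2, the sample at 7.48.

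At 50 mg/kg Cyp1a1 was at 12.26, 11.82, 11.62, 12.64 and 12.20. The groups did not overlap, as for 0.288% of genes, and Cyp1a1 rose 7.67-fold (log2 change 2.94, 1.80 to 4.07; limma adjusted p = 0.037). It was the 1 gene called at this dose, 0.00703% of all genes. That call was lost in 8 of 10 fits that left out a sample, with changes of 2.52 to 3.09 and an adjusted p of up to 0.44 without control replicate 2. It held without control replicates 4 or 5 and was lost without any other sample of the control or the 50 mg/kg group. It was also lost when the 4 arrays nearly identical across dose groups of the other agents were left out (adjusted p = 0.061). With the PCB126 arrays alone in the fit, the adjusted p was 0.00066.

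At 250 mg/kg Cyp1a1 reached 13.29, 13.39, 13.60, 13.44 and 13.34, clear of the controls as for 0.64% of genes, an 18.9-fold rise (log2 change 4.24, 3.10 to 5.37; limma adjusted p = 2.4e-06). The 3 members were among the 8 genes called at this dose, 0.0563% of all genes. Cyp1a2 was at 13.26, 12.83, 12.95, 13.32 and 13.23 in the controls, at 13.15 to 13.52 at 10 mg/kg and at 13.21 to 13.56 at 50 mg/kg, with differences of 0.20 and 0.23 that did not pass the test (adjusted p = 1 and 0.89). At 250 mg/kg it was at 13.83, 14.11, 14.04, 14.16 and 13.99, above every control, and rose 1.88-fold (log2 change 0.91, 0.59 to 1.23; adjusted p = 0.0012).

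Cyp1b1 showed no intermediate signal under PCB126. With controls not shown to be above background, a small rise at 10 or 50 mg/kg could have gone unseen. The controls were at 5.36, 5.32, 5.22, 5.18 and 5.41, the 10 mg/kg samples at 5.03 to 5.59 and the 50 mg/kg samples at 5.21 to 5.65. The differences were -0.01 (-0.88 to 0.85) and 0.08 (-0.79 to 0.95), with limma adjusted p values of 1 and 0.99. At 250 mg/kg the samples were at 7.95, 10.47, 10.95, 10.35 and 9.42, none of which overlapped the controls. Cyp1b1 rose 23.1-fold (log2 change 4.53, 3.66 to 5.40; adjusted p = 4.2e-11), against controls not shown to be above background. This was the largest measured rise of all genes at that dose, with Cyp1a1 next to it. Between 50 and 250 mg/kg Cyp1b1 rose by 4.45 (3.58 to 5.32; adjusted p = 8.5e-11), in a step that called 0.0211% of all genes. The same step was 1.30 for Cyp1a1 (0.17 to 2.44; adjusted p = 0.83) and 0.68 for Cyp1a2 (0.36 to 0.99; adjusted p = 0.17), although for both genes every 250 mg/kg sample stood above every 50 mg/kg sample, as 0.415% of all genes did. With the PCB126 arrays alone in the fit, the step of Cyp1a2 was called (adjusted p = 0.0092).

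DE-71 gave the largest change of Cyp1a1 in the series, from the lowest control mean of any agent, and not the highest level. The control mean was 6.91 for DE-71 and 9.17 for PCB126. The mean was 13.19 at DE-71 50 mg/kg and 13.41 at PCB126 250 mg/kg. The DE-71 controls, at 4.41 to 8.05, were followed by 7.05, 12.10, 8.94, 8.29 and 9.96 at 0.1 mg/kg. All 5 dosed samples were above the control mean but the groups overlapped. The difference of 2.36 (1.22 to 3.49) was the largest of all genes, and its adjusted p of 0.43 in limma (unadjusted 0.0001) did not pass the test. The mean of 9.27 at 0.1 mg/kg lay within the control means of the other agents, 8.71 to 9.50. Agent and array processing cannot be told apart in such a comparison of levels. At this dose 0% of genes were called, against 908 of 14217 at an unadjusted p below 0.05. The value ranged from 1.65 to 2.91 when a sample was left out, and without the lowest dosed sample, replicate 1 at 7.05, it was called (2.91, adjusted p = 0.046). By the exact permutation test on Cyp1a1 alone, p was 0.048.

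At 15 mg/kg Cyp1a1 stood at 13.38 (the averaged pair), 12.57, 11.84 and 12.97, and at 50 mg/kg at 13.35, 12.76, 13.03 and 13.60. Neither dose overlapped the controls, as was true of 1.81% and 2.69% of genes in this direction. Cyp1a1 rose 54.9-fold at 15 mg/kg (log2 change 5.78, 4.58 to 6.98; limma adjusted p = 5.1e-10) and 77.6-fold at 50 mg/kg (6.28, 5.07 to 7.48; adjusted p = 1e-11), the largest rise of all genes at each dose. The share of genes called was 1.24% at 15 and 10.2% at 50 mg/kg. The control replicate at 4.41 added to these folds: leave-one-out changes ran from 5.15 to 6.06 at 15 mg/kg and from 5.65 to 6.56 at 50 mg/kg, and each remained called. Without the arrays nearly identical across these doses, the changes were 5.69 and 6.33 (adjusted p = 4.2e-08 and 3e-10).

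Cyp1a2 rose less than Cyp1a1 at 15 and 50 mg/kg of DE-71. The controls were at 12.24, 12.17, 12.53, 12.88 and 13.19, and the 0.1 mg/kg samples at 12.65, 13.22, 13.23, 12.31 and 13.28 overlapped them, with a difference of 0.34 (0.02 to 0.65; adjusted p = 0.78). The 15 mg/kg samples were at 13.81, 13.48, 13.14 and 13.76, and the lowest of them overlapped the highest control. Cyp1a2 rose 1.93-fold at 15 mg/kg (0.95, 0.61 to 1.28; limma adjusted p = 0.00025), a call lost when only the DE-71 arrays entered the fit (adjusted p = 0.11). At 50 mg/kg it was at 13.92, 13.77, 13.74 and 14.22, clear of the controls, and rose 2.49-fold (1.31, 0.98 to 1.65; adjusted p = 7e-08).

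Cyp1b1 split the DE-71 samples at 15 and 50 mg/kg and not at 0.1 mg/kg. The controls lay at 4.81 to 5.14 and the 0.1 mg/kg samples at 4.75 to 5.31. At 15 mg/kg the values were 7.45, 4.77, 5.05 and 7.02. Of these, the sample at 7.02 (replicate 5) is nearly identical to 50 mg/kg replicate 4 and may be the same library. As labelled, a pair of samples stood far above the controls and a pair stood at about their level. The difference of 1.05 (0.13 to 1.97) had a limma adjusted p of 0.38 and fell to 0.59 (adjusted p = 0.81) without the averaged sample at 7.45. At 50 mg/kg the values were 8.45, 4.84, 6.78 and 10.36, with 3 of 4 samples above the control mean and replicate 3 among the controls. Cyp1b1 rose 5.99-fold on average (2.58, 1.66 to 3.51; adjusted p = 6.2e-05), with leave-one-out changes from 1.67 (adjusted p = 0.0053, without replicate 5) to 3.51 (adjusted p = 7.6e-09, without replicate 3). Without the arrays nearly identical across doses the change was 2.86 (adjusted p = 3.7e-05). The call rests on the spread shared by all 15 groups, since with the DE-71 arrays alone the adjusted p was 0.073, and the exact permutation test on this gene gave p = 0.079.

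PBDE-47 moved Cyp1a1 at the top dose and left the other members without a call. Cyp1a1 was at 8.97, 10.84, 9.55 (the averaged pair) and 8.66 in the controls and at 8.93, 9.62, 8.35, 6.80 and 8.59 at 0.1 mg/kg, a difference of -1.04 (-2.24 to 0.16; adjusted p = 1) with overlapping groups. At 0.1 mg/kg limma called 0 of 14217 genes (0%), against 457 at an unadjusted p below 0.05. At 15 mg/kg the values were 11.19, 8.79, 11.41, 10.42 and 10.44, of which 3 lay within the control range, and the difference of 0.95 (-0.26 to 2.15) had an adjusted p of 0.59, where 0.823% of genes were called.

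At 50 mg/kg Cyp1a1 was at 11.65, 11.35, 11.42, 12.02 and 11.60, all above the highest control, as for 4.23% of genes. It rose 4.30-fold (2.11, 0.90 to 3.31; limma adjusted p = 0.029) in a comparison that called 4.03% of genes. The call was lost in 6 of 9 fits that left out a sample, with changes of 1.82 to 2.55. Those were control replicates 1 (adjusted p = 0.11), 3 and 4 as an averaged sample (0.07) and 5 (0.1), and dosed replicates 1 (0.059), 4 (0.06) and 5 (0.052). Without the arrays nearly identical across doses it was 2.15 (adjusted p = 0.047), and with the PBDE-47 arrays alone the adjusted p was 0.024.

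Cyp1a2 leaned the other way under PBDE-47 without passing the test. It was at 12.83, 13.24, 13.15 and 12.89 in the controls and at 12.70, 12.61, 12.65, 13.02 and 12.87 at 50 mg/kg, a difference of -0.26 (-0.60 to 0.08; limma adjusted p = 0.5). The differences at 0.1 and 15 mg/kg were -0.12 (adjusted p = 1) and -0.32 (-0.66 to 0.01; adjusted p = 0.48), and the groups overlapped at each dose. Cyp1b1 stayed between 4.53 and 5.11 in all 19 PBDE-47 samples, with differences of -0.18, -0.25 and -0.17 at the 3 doses (adjusted p = 1, 0.9 and 0.93). The confidence intervals for Cyp1b1 reached up to 0.75.

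Phenobarbital separated the neighbours Cyp1a1 and Cyp1a2. Cyp1a1 was at 8.72, 9.05, 7.64, 9.34 and 8.81 in the controls, at 7.64, 9.49, 9.15, 10.12 and 10.53 at 5 mg/kg and at 9.35, 9.89, 9.91, 10.26 and 9.68 at 45 mg/kg. The 45 mg/kg samples were all above the highest control by a narrow margin, as were 2.24% of genes, and the difference of 1.11 (-0.03 to 2.24) had a limma adjusted p of 0.41. With only the arrays of these groups in the fit the adjusted p was 0.042, and the exact permutation test gave p = 0.0079. At 5 mg/kg the difference was 0.67 (-0.46 to 1.81; adjusted p = 0.9).

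Cyp1a2 was at 13.32, 13.16, 12.63, 13.33 and 13.15 in the phenobarbital controls and at 12.34, 12.56, 13.05, 12.57 and 12.24 at 45 mg/kg, groups that overlapped. It fell by 0.57 on the log2 scale, a 1.48-fold decrease (-0.89 to -0.25; limma adjusted p = 0.032), where 2.7% of genes were called and 1.32% fell. The call was lost in 8 of 10 leave-one-out fits, which gave -0.69 to -0.49 and an adjusted p of up to 0.14 without 45 mg/kg replicate 5. It held without control replicate 3, which was the lowest control, and without 45 mg/kg replicate 3, the highest dosed sample, and was lost without any other sample. At 5 mg/kg the difference was 0.01 (-0.30 to 0.33; adjusted p = 0.99), and 0.106% of genes were called. Cyp1b1 lay between 4.53 and 5.15 in all phenobarbital samples, with differences of 0.03 and -0.10 (adjusted p = 0.99 and 0.96).

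**Figure D2:**
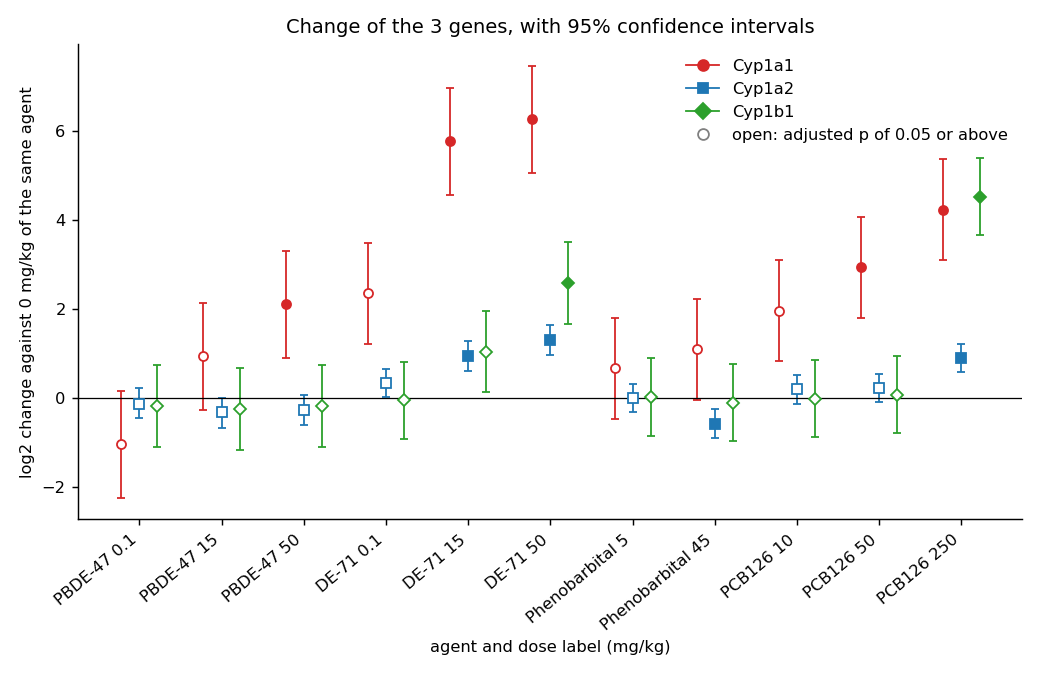
Log2 change from the agent's own controls for Cyp1a1 (circles), Cyp1a2 (squares) and Cyp1b1 (diamonds) at each dose, with 95% confidence intervals from limma; filled symbols passed an adjusted p below 0.05. Cyp1a1 passes in 5 of 11 comparisons, Cyp1a2 in 4 and Cyp1b1 in 2, and the fall of Cyp1a2 at phenobarbital 45 mg/kg is the filled symbol below 0.

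The lowest dose at which each gene passed the test thus differed. For Cyp1a1 it was 15 mg/kg of DE-71, 50 mg/kg of PBDE-47 and 50 mg/kg of PCB126. For Cyp1a2 it was 15 mg/kg of DE-71 and 250 mg/kg of PCB126 among the rises. For Cyp1b1 it was 50 mg/kg of DE-71 and 250 mg/kg of PCB126. These doses depend on group sizes and on how many other genes changed. The Cyp1a1 calls at 50 mg/kg of PBDE-47 and PCB126 were lost in 6 of 9 and 8 of 10 leave-one-out fits. The calls of Cyp1a2 at DE-71 15 and Cyp1b1 at DE-71 50 mg/kg were lost with the DE-71 arrays alone. Cyp1b1 controls were not shown to be above background, so a rise of that gene at lower doses could have gone unseen. The test of whether the measured changes of the genes differ is the one within the same samples.

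That test took the difference of a pair of genes in each sample and compared dosed with control samples by a two-sided exact permutation test, over 33 combinations of gene pair and comparison. The smallest p it allows is 0.0079 for 5 against 5 samples and 0.016 for 5 against 4, and p values were adjusted over the 33 tests. The change of Cyp1a1 exceeded that of Cyp1a2 by 4.83 at DE-71 15, 4.96 at DE-71 50, 2.36 at PBDE-47 50, 1.76 at PCB126 10, 2.71 at PCB126 50, 3.33 at PCB126 250 and 1.68 at phenobarbital 45 mg/kg, each with an adjusted exact p of 0.037. It exceeded that of Cyp1b1 by 4.73 at DE-71 15, 3.70 at DE-71 50, 2.27 at PBDE-47 50, 1.98 at PCB126 10, 2.86 at PCB126 50 and 1.20 at phenobarbital 45 mg/kg, with the same adjusted p. Where the Cyp1b1 controls were at background, a rise of that gene would be understated and these differences overstated. Cyp1a2 lay at 12.17 to 13.33 in the controls, where the highest value of the table was 14.94. If the array response flattens at that brightness, which was not tested, a rise of Cyp1a2 would be understated and the excess of Cyp1a1 over it overstated. At PCB126 250 mg/kg the difference between Cyp1a1 and Cyp1b1 was -0.29 and did not pass the test (adjusted exact p = 0.73). Cyp1a1 was itself at 13.29 to 13.60 there, so a flattening response would understate its rise too. Cyp1a2 and Cyp1b1 differed in change at PCB126 250 mg/kg, by -3.62 (adjusted exact p = 0.037), and passed in no other of the 11 comparisons.

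At DE-71 0.1 mg/kg the change of Cyp1a1 stood 2.02 above that of Cyp1a2 and 2.41 above that of Cyp1b1 (adjusted exact p = 0.098 for each). Without the arrays nearly identical across doses, the differences at DE-71 15, DE-71 50 and PBDE-47 50 mg/kg kept their size (2.28 to 4.96) with an adjusted exact p of 0.084 for each, and that between Cyp1a1 and Cyp1b1 at phenobarbital 45 mg/kg, whose samples were the same, had 0.065. The smaller groups raise the smallest p that can be reached.

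Neighbouring upper doses mostly differed by less than the test could call. From 15 to 50 mg/kg of DE-71 Cyp1a1 differed by 0.50 (-0.77 to 1.77; limma adjusted p = 0.78), after a rise of 3.42 from 0.1 to 15 mg/kg (2.22 to 4.62; adjusted p = 0.00037). The interval of the upper step allows a further rise of up to 1.77, and whether the array response flattens at these levels was not tested. The share of genes called was 0.429% in the step from 0.1 to 15 and 0.197% in that from 15 to 50 mg/kg. With the DE-71 arrays alone the lower step of Cyp1a1 was no longer called (adjusted p = 0.19). Cyp1a2 differed by 0.61 (adjusted p = 0.083) and then by 0.37 (0.01 to 0.72; adjusted p = 0.34).

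Cyp1b1 differed by 1.10 (0.18 to 2.02; limma adjusted p = 0.33) from 0.1 to 15 mg/kg of DE-71 and by 1.53 (0.56 to 2.51; adjusted p = 0.19) from 15 to 50 mg/kg. The upper step was called without the arrays nearly identical across these doses (2.12, adjusted p = 0.031), without 50 mg/kg replicate 3 (2.46, adjusted p = 0.00085) and without replicate 4 (1.81, adjusted p = 0.037), and was 0.62 (adjusted p = 0.48) without replicate 5. Whether the steps differ between genes was not tested. Under PBDE-47, Cyp1a1 differed by 1.99 from 0.1 to 15 mg/kg (0.85 to 3.12; adjusted p = 0.066, where 1.06% of genes were called) and by 1.16 from 15 to 50 mg/kg (0.02 to 2.29; adjusted p = 1), and 0.74 without 15 mg/kg replicate 2. The lower of these steps was called with the PBDE-47 arrays alone (adjusted p = 0.048) and without replicate 2 of either group (2.28, adjusted p = 0.039, without that of 0.1 mg/kg and 2.40, adjusted p = 0.023, without that of 15 mg/kg). In the upper PBDE-47 step limma called 0% of genes, against 427 genes at an unadjusted p below 0.05.

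The highest group means were 13.41 for Cyp1a1, 14.03 for Cyp1a2 and 9.83 for Cyp1b1, each at PCB126 250 mg/kg, and DE-71 50 mg/kg followed with 13.19, 13.91 and 7.61. Only 0.2848% of all values in the table were at or above 13, a level that Cyp1a1 reached in these groups and that Cyp1a2 held in many control samples. The highest value of any member was 14.22, for Cyp1a2 at DE-71 50 mg/kg, below the table's maximum of 14.94. Whether the array response flattens at this brightness was not tested.

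The spread between samples differed by gene and group. Within each agent the SD of Cyp1a1 was smallest at the top dose, where the mean was highest. From 0 mg/kg to the top dose it was 0.98, 0.68, 0.40 and 0.12 under PCB126. It was 1.47, 1.90, 0.66 and 0.37 under DE-71, 0.96, 1.04, 1.03 and 0.26 under PBDE-47 and 0.65, 1.11 and 0.33 under phenobarbital, so that in these agents it was larger at the lowest dose given than at 0 mg/kg. Across agents the SD did not order by the mean. For Cyp1a2 it lay between 0.13 and 0.44 in all groups. For Cyp1b1 it was 0.10 to 0.24 in 12 groups and 1.36, 2.36 and 1.19 at DE-71 15, DE-71 50 and PCB126 250 mg/kg. The spreads are given as a description, with no test.

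**Figure D3:**
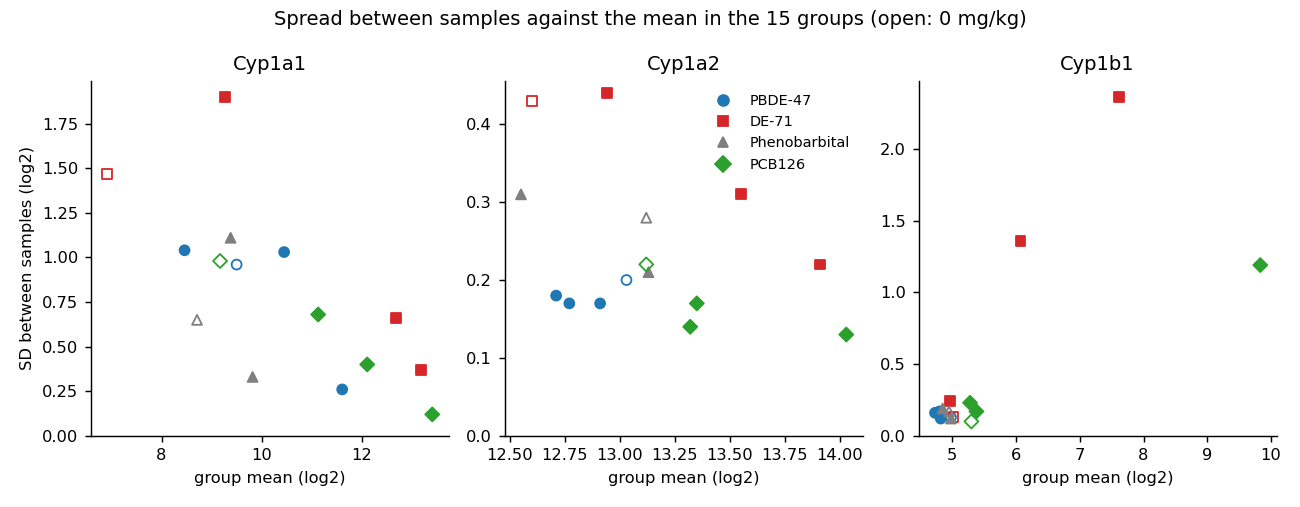
SD between samples of a group (vertical axis, log2) against the group mean (horizontal axis, log2) for Cyp1a1, Cyp1a2 and Cyp1b1 in the 15 groups, coloured by agent, with open symbols for 0 mg/kg; each panel has its own scales. For Cyp1a1 the top-dose group of each agent has the lowest SD of that agent, from 0.12 at a mean of 13.41 to 0.37 at 13.19, while the points of Cyp1b1 lie together at a mean near 5 except for the 3 groups with SDs of 1.19 to 2.36.

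Read sample by sample, raised Cyp1b1 was found with the highest Cyp1a1. The largest gap in the Cyp1b1 values of the 72 samples lay between 5.65 and 6.78, with 10 samples above it and 62 below. All 10 were dosed with PCB126 at 250 mg/kg or DE-71 at 15 or 50 mg/kg, and each had Cyp1a1 of at least 12.97. The highest Cyp1a1 among the 62 others was 12.76, in DE-71 50 mg/kg replicate 3, which had Cyp1b1 of 4.84. For Cyp1a2 the sets overlapped slightly, with a lowest value of 13.74 above the gap and a highest value of 13.77 below it. The gap was chosen from the values, so this is a description. DE-71 15 mg/kg replicates 1 and 2 are nearly identical arrays counted as 1 of the 10, and replicate 5 of that group and replicate 4 of 50 mg/kg, also near-identical, are 2 of them.

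**Figure D4:**
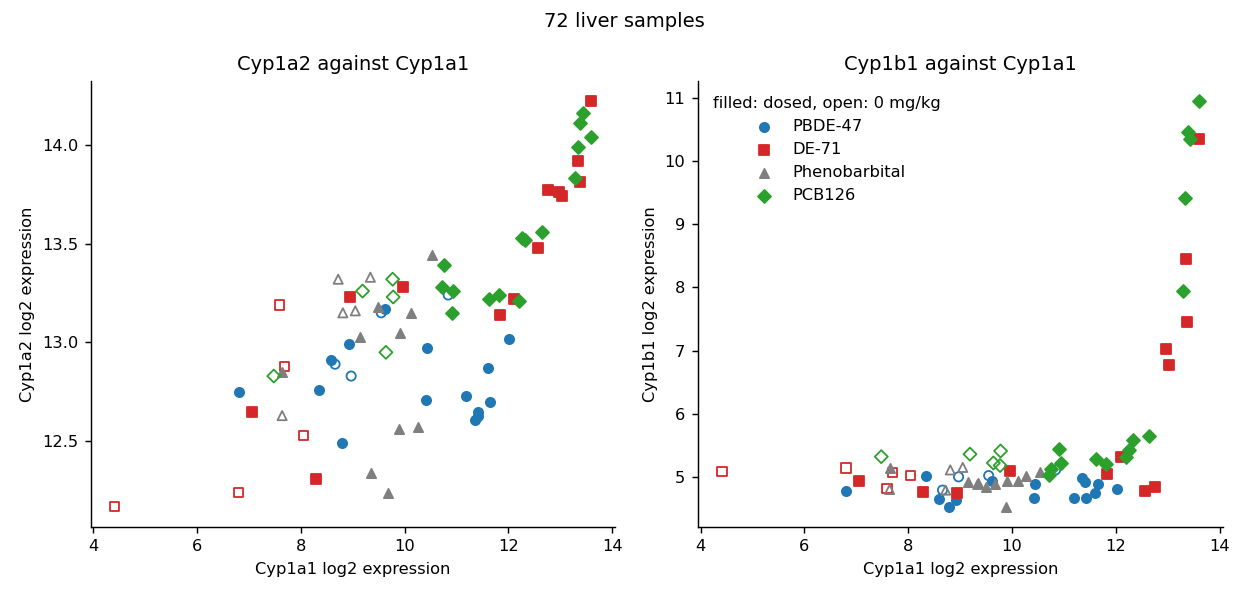
Cyp1a2 (left) and Cyp1b1 (right) against Cyp1a1 in each of the 72 liver samples, all in log2 expression, coloured by agent, with filled symbols for dosed and open symbols for 0 mg/kg samples. Cyp1b1 stays at or below 5.65 in every sample with Cyp1a1 up to 12.76 and lies between 6.78 and 10.95 in the 10 samples with Cyp1a1 of 12.97 or more, while Cyp1a2 is spread at low Cyp1a1 and rises with it at the top.

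At matched doses the mixture and the single congener were compared directly, as the change under DE-71 minus the change under PBDE-47. At 15 mg/kg the change of Cyp1a1 was 4.83 higher under DE-71 (3.13 to 6.54; limma adjusted p = 0.0056) and that of Cyp1a2 was 1.27 higher (0.79 to 1.74; adjusted p = 0.011). These were the 2 genes called of 14217 (0.0141%). Cyp1b1 differed by 1.30 (-0.00 to 2.61; adjusted p = 0.97). At 50 mg/kg the change of Cyp1a1 was 4.17 higher (2.47 to 5.88; adjusted p = 0.017) and that of Cyp1a2 was 1.57 higher (1.10 to 2.05; adjusted p = 0.00015), among 17 genes called (0.12%). Cyp1b1 differed by 2.75 (1.45 to 4.05; adjusted p = 0.058) and did not pass. At 0.1 mg/kg the differences of 3.40 for Cyp1a1 (1.75 to 5.06), 0.45 for Cyp1a2 and 0.13 for Cyp1b1 did not pass (adjusted p = 0.48, 1 and 1), where limma called 0% of genes and 644 had an unadjusted p below 0.05.

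Several of these calls turned on single samples. The difference of Cyp1a1 was 4.39 (limma adjusted p = 0.071) at 15 mg/kg and 3.73 (0.078) at 50 mg/kg without PBDE-47 control replicate 2, the sample at 10.84, and 4.12 (0.054) at 50 mg/kg without DE-71 50 mg/kg replicate 2. The difference of Cyp1a2 at 15 mg/kg was not called without PBDE-47 control replicates 2 (1.20, adjusted p = 0.075) or 3 and 4 (1.23, 0.054), DE-71 control replicates 1 (1.18, 0.059) or 2 (1.16, 0.065), or DE-71 15 mg/kg replicates 1 and 2 (1.18, 0.091) or 5 (1.20, 0.076). That of Cyp1b1 at 50 mg/kg was called without DE-71 50 mg/kg replicate 3 (3.67, 0.00013) or 4 (3.03, 0.015) and was 1.83 (0.15) without replicate 5. Without the arrays nearly identical across doses, Cyp1a1 differed by 4.98 (adjusted p = 0.022) and 4.18 (0.028), Cyp1a2 by 1.18 (0.21) and 1.60 (0.00054), and Cyp1b1 at 50 mg/kg by 2.99 (0.031). The DE-71 controls had the lowest Cyp1a1 mean of the 4 agents, 6.91 against 9.50 for PBDE-47. Since each change subtracts its own controls, this gap makes up 2.59 of the 4.83 at 15 mg/kg and of the 4.17 at 50 mg/kg. The dosed means were 12.69 against 10.45 at 15 mg/kg and 13.19 against 11.61 at 50 mg/kg. What lies behind the gap between the controls was not tested. The dosed levels themselves were 13.35, 12.76, 13.03 and 13.60 under DE-71 and 11.35 to 12.02 under PBDE-47 at 50 mg/kg.

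The other genes of the AhR pathway had smaller measured changes than Cyp1a1 at DE-71 50 and PCB126 250 mg/kg, while some had larger ones than Cyp1a2 there; these differences were not tested. Of 19 listed genes, 14 were measured: the receptor Ahr, its partners Arnt and Arnt2, its repressor Ahrr, the chaperones Hsp90ab1 and Ptges3, further targets and the electron donors and heme enzyme that P450s need. The list was drawn up with earlier results of these data known. No member of it fell in any comparison with 0 mg/kg. At DE-71 50 mg/kg 6 of 14 rose, where 4.83% of all genes did, with a median change over the list of 0.32 against 0.00 over all genes. At PCB126 250 mg/kg 2 of 14 rose, where 0.0563% of all genes did, with a median of 0.12 against -0.01. The counts were 3 of 14 at DE-71 15, PBDE-47 50 and phenobarbital 45 mg/kg, where 1.01%, 2.35% and 1.38% of all genes rose. The count was 2 at PBDE-47 15 mg/kg, where 0.598% rose, and 0 at each other dose. The genes were Por, Cyb5a and Alas1 at DE-71 15 and PBDE-47 50 mg/kg and Por and Alas1 at PBDE-47 15 mg/kg. At phenobarbital 45 mg/kg they were Ptges3, Por and Cyb5a. These are electron donors, the heme enzyme and a chaperone, and no further target on the list was called in these groups. With the DE-71 arrays alone the count at DE-71 50 mg/kg was 3, and without the arrays nearly identical across doses it was 6, while that at PBDE-47 15 mg/kg was 1.

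Nqo1, the quinone reductase that answers to both AhR and the stress factor NRF2, was at 9.97 to 10.86 in the DE-71 controls and at 11.46 to 12.30 at 50 mg/kg, and rose by 1.55 (0.80 to 2.30; limma adjusted p = 0.0037). At PCB126 250 mg/kg it rose by 1.62 (0.91 to 2.32; adjusted p = 0.044), and at PBDE-47 50 mg/kg it differed by 0.08 (adjusted p = 0.96). Nfe2l2, which encodes NRF2, rose by 0.52 at DE-71 50 mg/kg (adjusted p = 0.029) and by 0.76 at PCB126 250 mg/kg (adjusted p = 0.019). At PCB126 250 mg/kg the count of 2 was 0 with a replicate block and 1 with robust variance estimates, with array weights or with all single-gene probe sets. Aldh3a1, an aldehyde dehydrogenase and classic dioxin-inducible gene, was at 3.49 to 3.76 in the DE-71 controls and at 3.53 to 7.10 at 50 mg/kg, and rose by 1.54 (0.98 to 2.10; adjusted p = 9.4e-05). Its samples at that dose spread over an SD of 1.74, and at PCB126 250 mg/kg it differed by -0.01 (adjusted p = 1). The latter samples lay at 3.59 to 3.73. Like the DE-71 controls they were below the array medians of 4.819 to 5.042, so Aldh3a1 is not shown to be above background there.

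Ahr itself differed by 1.04 (0.34 to 1.74; limma adjusted p = 0.17) at DE-71 15 and by 0.89 (0.18 to 1.59; adjusted p = 0.096) at DE-71 50 mg/kg, and by 0.39 at PCB126 250 mg/kg (adjusted p = 0.97). Arnt differed by 0.15 and 0.11 in the latter comparisons (adjusted p = 0.68 and 0.99). Ahrr and Tiparp, which encode feedback repressors of the receptor, differed by -0.00 and -0.02 at DE-71 50 mg/kg and by 0.13 and -0.02 at PCB126 250 mg/kg, with adjusted p values of at least 0.95. Ahrr lay between 3.13 and 3.93 in all samples, below the array medians of 4.819 to 5.042. It is not shown to be above background, so its lack of change does not show that the gene was unchanged. Por, the reductase that feeds electrons to P450s, rose by 0.95 at PBDE-47 50, 1.34 at DE-71 50 and 1.08 at phenobarbital 45 mg/kg (adjusted p = 0.0039, 1.4e-05 and 0.00044). Alas1, the first enzyme of heme synthesis, rose by 1.49 at PBDE-47 50 and 1.05 at DE-71 50 mg/kg (adjusted p = 9.8e-06 and 0.0018). Cyb5a, an electron carrier, rose by 0.34 to 0.50 where called against 0 mg/kg, and Ptges3 by 0.23 at phenobarbital 45 mg/kg (adjusted p = 0.035).

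Genes with the most similar pattern were ranked by Pearson correlation over the 72 samples, each taken as its deviation from the control mean of its agent. The samples of an agent share controls and processing, so the coefficients are a description. Cyp1a1 was closest to Cyp1a2 (r = 0.80), followed by the chemokine Cxcl9 (0.73), the lysosomal acid phosphatase Acp2 (0.72), Ddrgk1 (0.70) and the mitochondrial superoxide dismutase Sod2 (0.69). Cyp1a2 was followed by Acp2 (0.74), Cyp1b1 (0.68), the selenium-binding protein Selenbp1 (0.67) and complement component C5 (0.65). Cyp1b1 was closest to Acp2 (0.74), Cyp1a2 (0.68), Selenbp1 (0.67), Exoc3 (0.64) and Prxl2c (0.63), and its coefficient with Cyp1a1 was 0.59. Acp2 stood in all 3 sets. It rose by 0.48 at DE-71 50, 0.42 at DE-71 15 and 0.50 at PCB126 250 mg/kg (limma adjusted p = 0.00012, 0.0034 and 0.00054) and differed by -0.10 at PBDE-47 50 and 0.16 at phenobarbital 45 mg/kg (adjusted p = 0.66 and 0.42).

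Markers of other liver cells moved in some of the same comparisons. The share of all genes called there, in either direction, was 10.2% at DE-71 50 and 4.03% at PBDE-47 50 mg/kg. It was 2.7% at phenobarbital 45 and 0.0563% at PCB126 250 mg/kg. Of 8 markers of hepatocytes around the central vein, the cells where Cyp1a2 is mainly expressed, 2 fell at phenobarbital 45 mg/kg (Glul by 0.66 and Rgn by 0.59), 3 at DE-71 50 mg/kg (Cyp2e1 by 0.46, Oat by 1.22 and Rgn by 0.60), 1 at PBDE-47 50 mg/kg (Glul by 0.82) and none at PCB126 250 mg/kg. The mean of that list ran from 8.64 to 9.01 in the phenobarbital controls and from 8.21 to 8.60 at 45 mg/kg, the dose at which Cyp1a2 fell. Its part in that fall was not tested. Of 10 measured markers of stellate cells and fibroblasts, where CYP1B1 is known, Des rose by 0.34 and Lrat and Pdgfrb fell by 0.58 and 0.78 at DE-71 50 mg/kg, Ecm1 fell by 0.73 at PBDE-47 50 mg/kg, and none was called at PCB126 250 mg/kg. The mean of this list was 7.02 to 7.89 at DE-71 50 mg/kg against 7.74 to 8.03 in its controls, and 7.69 to 8.41 at PCB126 250 mg/kg against 7.64 to 8.09. The part of these genes in the rise of Cyp1b1 was not tested.

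The remaining marker lists were called in the brominated and phenobarbital groups and in no PCB126 group. In either direction, 10.2% of all genes were called at DE-71 50, 4.03% at PBDE-47 50 and 2.7% at phenobarbital 45 mg/kg. The share was 1.24% at DE-71 15 and 0.823% at PBDE-47 15 mg/kg. Of 6 periportal hepatocyte markers, 4 fell at DE-71 50, 3 at PBDE-47 50, 2 at PBDE-47 15 and 1 at phenobarbital 45 mg/kg, with Hal, the histidine ammonia lyase, falling by 0.86, 1.21, 0.99 and 0.82. Of 4 measured Kupffer cell and macrophage markers, all 4 fell at PBDE-47 50 mg/kg, by 0.60 to 0.80. Of 4 measured endothelial markers, Kdr fell by 0.49 at DE-71 50 mg/kg. Of 4 measured cholangiocyte markers, Epcam rose by 0.74 to 1.35 at PBDE-47 15 and 50, DE-71 15 and 50 and phenobarbital 45 mg/kg. Among 7 measured hepatocyte markers Cps1 and Serpina1 fell by 0.47 and 0.22 at DE-71 50 mg/kg. Of the lymphocyte, erythroid and fetal liver markers, 5, 4 and 4 were measured and 0 were called in limma at any dose against 0 mg/kg. The part of these lists in the changes of Cyp1a1, Cyp1a2 and Cyp1b1 was not tested.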

How the data were processed

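RNA of liver pieces was measured on Affymetrix rat expression arrays. The deposited log2 values per probe set were made by the authors with robust multi-array average (RMA), per the submitters' processing notes, whose version is not given in the sources used here. Of 31099 probe sets, 20826 had 1 gene symbol, 436 several and 9780 none, and 57 were controls; names come from an older platform annotation. The brightest single-gene probe set stood for each of 14217 genes. Arrays of the same group with a root mean square difference below 0.3 were averaged, as they may be 1 library.

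Group means of all 15 groups were fitted with limma 3.58.1 (lmFit and eBayes, R 4.3.3). P-values were adjusted by Benjamini-Hochberg over all genes within each comparison, and genes were called at an adjusted p below 0.05. The confidence intervals are unadjusted. Exact tests on single genes were run in R and those on gene pairs in SciPy 1.17.1, and all are two-sided. The scripts were tested on simulated data. Sorted values varied less within an agent (SD 0.02485 to 0.04656) than across the whole set (0.06925), as separate normalization per agent would give, although the labels do not say so. Doses were therefore compared with the controls of their own agent. Where nothing says that samples came from separate litters, p-values measure only the spread between these samples, which may be technical.

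The members, the AhR and marker lists and the tests were chosen with earlier results of these data known. Named genes were the members, the called genes of the AhR list with Ahr, Arnt, Ahrr, Nqo1, Tiparp and Aldh3a1 in any case, and the 5 genes most correlated with each member; called marker genes were named after their values were seen. Of the 19 genes of the AhR list, 14 were analysed here. Alternatives were a joint quantile normalization, all arrays as samples, a filter on genes with a mean below 5, robust eBayes, array weights, all probe sets, fits on fewer arrays, a replicate block, leaving out each sample and leaving out arrays nearly identical across doses. The last of these was planned for the comparisons with 0 mg/kg and was added for the dose steps, the agent differences and the gene pairs after the data were seen.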

Additional observations from a re-analysis of the deposited data

Results flagged for a closer look

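Single samples stood apart in 4 of the 45 combinations of gene and group, where chance gives about 1 in 20, by the gap to the nearest sample over the range of the group. Cyp1a1 was at 7.48 in PCB126 0 mg/kg replicate 2, with the nearest control at 9.19. Cyp1a1 was at 12.33 in PCB126 10 mg/kg replicate 4, with the nearest sample at 10.94. Cyp1a2 was at 12.63 in phenobarbital 0 mg/kg replicate 3, with the nearest control at 13.15. Cyp1b1 was at 4.53 in phenobarbital 45 mg/kg replicate 2, with the nearest sample at 4.88.

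The changes under DE-71 and PBDE-47 differed by the test of the difference itself in limma. At 15 mg/kg the difference was 4.83 for Cyp1a1 (adjusted p = 0.0056) and 1.27 for Cyp1a2 (adjusted p = 0.011), and at 50 mg/kg it was 4.17 (adjusted p = 0.017) and 1.57 (adjusted p = 0.00015). The gap of 2.59 between the Cyp1a1 means of the DE-71 and PBDE-47 controls is part of both Cyp1a1 differences.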

How the results depend on the processing

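No change of a member reversed its sign with a call under any alternative, and the calls of Cyp1a1 at DE-71 15 and 50 and PCB126 250 mg/kg, of Cyp1a2 at DE-71 50 and PCB126 250 mg/kg and of Cyp1b1 at PCB126 250 mg/kg held under all alternatives run. Causes of the changes below were not tested. With only the arrays of the own agent, Cyp1a2 at DE-71 15 (0.95, adjusted p = 0.11) and Cyp1b1 at DE-71 50 mg/kg (2.58, 0.073) lost their calls. With only the arrays of the groups compared, the same lost theirs (0.11 and 0.19), as did Cyp1a2 at phenobarbital 45 (-0.57, 0.082) and Cyp1a1 at PCB126 50 mg/kg (2.94, 0.054), and Cyp1a1 at phenobarbital 45 mg/kg was called (1.11, 0.042). Cyp1a1 at PCB126 50 mg/kg also missed the threshold with robust eBayes (0.076), all probe sets (0.062) and without the arrays nearly identical across doses (0.061), each at 2.94. Replicate numbers were not taken as pairs, since the labels do not say so. The mean correlation of same-numbered deviations was 0.01 to 0.05 by agent, and single pairs ran from -0.42 to 0.44. These values cannot decide whether such samples shared a litter or day. With a replicate block Cyp1a1 at PCB126 50 mg/kg was 2.94 (limma adjusted p = 0.14). In that fit the Cyp1b1 difference between DE-71 and PBDE-47 at 50 mg/kg was 2.86 (0.019). The latter was 2.76 (0.035) with all 74 arrays and 2.99 (0.031) without the near-identical arrays, which left the Cyp1a2 difference at 15 mg/kg at 1.18 (0.21). By the unadjusted exact permutation test, p was 0.048 for Cyp1a2 at PBDE-47 15 (-0.32), 0.048 for Cyp1a1 at DE-71 0.1 (2.36), 0.0079 for Cyp1a1 at PCB126 10 (1.96) and phenobarbital 45 (1.11) and 0.079 for Cyp1b1 at DE-71 50 mg/kg (2.58).

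Without near-identical arrays the differences in change between genes were, for Cyp1a1 over Cyp1a2, 2.38 at PBDE-47 50, 4.81 at DE-71 15 and 4.96 at DE-71 50 mg/kg, and for Cyp1a1 over Cyp1b1 2.28, 4.95 and 3.47 (adjusted exact p = 0.084 for each), with 1.20 (0.065) at phenobarbital 45 mg/kg. Among dose steps, that of Cyp1a2 from 0.1 to 15 mg/kg of DE-71 was called with all 74 arrays (0.66, 0.014) and array weights (0.65, 0.049), and from 5 to 45 mg/kg of phenobarbital with array weights (-0.59, 0.0022).

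Leaving out a sample changed calls within these ranges: Cyp1a1 at DE-71 0.1 1.65 to 2.91, PBDE-47 50 1.82 to 2.55 (2.12 without control replicates 3 and 4) and PCB126 50 mg/kg 2.52 to 3.09; Cyp1a2 at phenobarbital 45 mg/kg -0.69 to -0.49 and F over controls 2.67 to 7.54; DE-71 minus PBDE-47 for Cyp1a1 4.21 to 5.12 at 15 and 3.55 to 4.46 at 50 mg/kg, Cyp1a2 1.16 to 1.41 at 15 (1.23 without PBDE-47 control replicates 3 and 4) and Cyp1b1 1.83 to 3.67 at 50 mg/kg.

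Counts over all genes moved by over 1.5 times in several settings: at PBDE-47 15 mg/kg from 117 to 339 with all 74 arrays, 191 with weights and 61 without near-identical arrays; at PBDE-47 50 mg/kg from 573 to 991 and 971 with the first pair of these settings; at DE-71 15 mg/kg from 177 to 307 with all arrays, 43 with the agent alone and 62 with the groups alone; at DE-71 50 mg/kg from 1448 to 489 with weights, 350 and 118; at phenobarbital 5 mg/kg from 15 to 59 and at 45 mg/kg from 384 to 836 with weights, and to 739 with the agent alone. At PCB126 50 mg/kg the count of 1 ran from 0 to 4, and for the agent difference at 50 mg/kg the count of 17 ran from 6 to 57. For dose steps, the counts ran from 0 to 305 for DE-71 15 to 50 (28 in the chosen fit), 6 to 227 for DE-71 0.1 to 15 (61), 93 to 178 for PBDE-47 0.1 to 15 (150), 0 to 9 for PBDE-47 15 to 50 (0) and 93 to 533 for phenobarbital 5 to 45 mg/kg (97). The AhR list count of 6 at DE-71 50 mg/kg was 2 with the groups alone.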
